A study of Mus musculus with 12 samples.

Results

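Always-open regions at gene boundaries are merged stretches of accessible chromatin at the start or the end of a protein-coding gene. Each held a peak in every library, and that peak need not cover its whole length. Autosomal peaks of 12 peak lists were merged where they overlapped by at least 1 bp, which gave 144562 regions. Of these, 17343 (12%) held a peak in all 12 libraries. A member had to be one of these, be under 2000 bp long and have its centre within 1 kb of the start or end of a RefSeq protein-coding gene on mouse build mm10. The members were thus chosen by the peak calls themselves and by position, and being called in every library is no finding about them. The rule kept 6253 regions, 4.33% of all merged regions and 36.1% of those called in every library. The other always-called regions were 5282 inside genes, 4270 outside genes and 1538 of 2000 bp or more.

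The libraries are ATAC-seq, which marks exposed DNA with a transposase, from mouse bone marrow-derived macrophages (BMDM) with or without Baf60a, a SWI/SNF chromatin remodelling subunit that the gene Smarcd1 encodes. A first cohort of 4 libraries, labelled only WT or KO, each untreated or given oxLDL (oxidised low-density lipoprotein, 50 µg/ml for 48 h), was made with the Omni-ATAC protocol, with 1 library per group. The ApoE KO cohort of 8 libraries lacks ApoE in all groups: WT is Baf60a f/f, Lyz2 Cre- and KO is Baf60a f/f, Lyz2 Cre+, untreated or with the same oxLDL treatment, with 2 libraries per group, from cryopreserved cells with a Nextera kit. Lyz2 Cre is active in myeloid cells, and the labels do not say how completely Baf60a was lost, nor the age of the mice, nor where the replicates came from, so the p-values cover only how much these particular libraries differ, which may be technical. The lists held 80394 to 138132 autosomal peaks in the first cohort and 24397 to 44524 in the ApoE KO cohort, and read depth is not known from them. Cohort goes with ApoE status as labelled, storage, library protocol and peak caller, and these cannot be told apart.

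A promoter is the stretch around a gene's start where transcription factors and RNA polymerase assemble, and it is kept clear of nucleosomes in cells that use it. Promoters of genes needed in every cell usually lie in CpG islands, which are rich in G, C and unmethylated CpG, and carry sites for broadly expressed factors such as NRF1, ETS proteins, SP/KLF proteins, YY1 and NF-Y. Cell type genes lean more on distal enhancers, and in macrophages these are bound by PU.1, C/EBP and AP-1 proteins.

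A few promoters show the letters that are frequent or rare in member promoters in the counts given further on. Each is the member promoter of highest mean rank that holds the motif upstream of its start, and the 120 bases are written 5′ to 3′ on the gene's strand, from RefSeq on GRCm38.p6. Capitals mark the motif letters on either strand, and the AP-1 letters used are a wider pattern than the AP-1 site. The Kbtbd8 window lies at chr6:95117760-95117879 on the plus strand and the Tasp1 window at chr2:140066806-140066925 on the minus strand. The Pcnx4 window lies at chr12:72536237-72536356 on the plus strand and the Arl13b window at chr16:62847072-62847191 on the minus strand. The Zfp317 window lies at chr9:19621971-19622090 on the plus strand and the Sel1l window at chr12:91849288-91849407 on the minus strand.
Kbtbd8, NF-Y: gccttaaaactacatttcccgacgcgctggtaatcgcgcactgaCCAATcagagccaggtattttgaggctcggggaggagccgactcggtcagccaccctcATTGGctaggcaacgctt
Tasp1, ETS: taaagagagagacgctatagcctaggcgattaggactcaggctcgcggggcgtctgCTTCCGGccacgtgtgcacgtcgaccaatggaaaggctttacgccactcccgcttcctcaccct
Pcnx4, NRF1: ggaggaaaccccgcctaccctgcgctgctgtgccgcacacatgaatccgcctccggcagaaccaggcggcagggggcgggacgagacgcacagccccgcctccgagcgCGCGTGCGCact
Arl13b, SP/KLF: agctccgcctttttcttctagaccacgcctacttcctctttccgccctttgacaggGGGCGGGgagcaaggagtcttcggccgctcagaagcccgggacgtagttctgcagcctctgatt
Zfp317, TATA: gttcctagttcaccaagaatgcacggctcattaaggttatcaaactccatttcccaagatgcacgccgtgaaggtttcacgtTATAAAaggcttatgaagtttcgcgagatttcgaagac
Sel1l, AP-1: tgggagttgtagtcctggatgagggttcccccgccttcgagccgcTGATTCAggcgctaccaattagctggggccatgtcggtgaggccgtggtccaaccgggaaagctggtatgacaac

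Most members lay at a gene start. Of the 6253, 4787 (76.6%) lay within 1 kb of a known gene start and no known end. Another 187 (2.99%) lay near both, and 152 (2.43%) near an end only. For 1127 members (18.02%) the strand of the nearby gene was not in the tables used, so start and end could not be told apart. The boundary lay inside the region in 5981 members (95.7%), and the median distance from centre to boundary was 210 bp. The members were 372 to 1999 bp long with a median of 1442 bp. Counted by genes with a known strand, 5571 of 16456 starts (33.9%) carried a member, against 382 ends (2.32%), of which 190 belonged to genes without a member at the start. In all, 7075 of 20661 autosomal protein-coding genes (34.2%) had a member at a boundary.

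Peak summits, used here for the ApoE KO cohort only, mostly sat near the gene start. Over 4214 members with 1 known start, the median over the 8 libraries of the summit's offset was 4 bp downstream of the start. In 59.0% of these members that offset was within 100 bp, and in 83.0% within 250 bp. By library, the median offset ran from -3 to 11.5 bp and the share within 100 bp from 52.2% to 60.5%. Within a member, the summit moved by a median of 134 bp over the 8 libraries, and in 1473 members (34.95%) by no more than 100 bp.

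**Figure D1:**
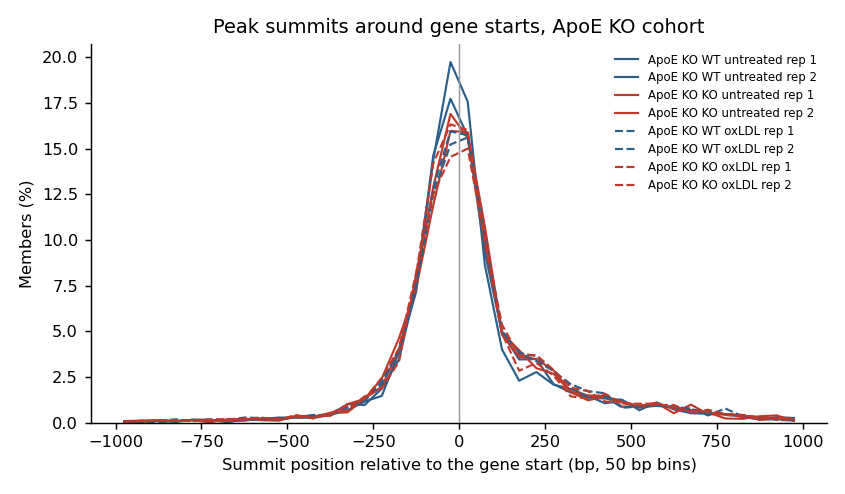
Position of the peak summit relative to the gene start (x, bp, 50 bp bins) against the percent of 4214 members (y), 1 line for each of the 8 ApoE KO cohort libraries (WT blue, KO red, oxLDL dashed). All 8 lines are highest in a bin that touches the start, and 79.6% to 82.1% of summits fall within 250 bp of it.

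Strength was taken from the score each caller gave a peak, which is not on a common scale, as a percentile within the library's own list, where 100 is the strongest peak. The median member was strong in every list, and this describes the regions, since being called everywhere chose them. The median member sat at percentile 92.3, 92.1, 91.5 and 91.8 in the first cohort (WT untreated, KO untreated, WT oxLDL, KO oxLDL). In the ApoE KO cohort the lowest, median and highest of the 8 library medians were 74.0, 78.6 and 84.5. The first cohort's medians lay above all 8 of the ApoE KO cohort, whose lists are shorter. Below percentile 50 lay 0.304% to 0.912% of members in a first cohort list and 4.09% to 21.7% in an ApoE KO cohort list. Members made up 4.69% to 8.52% of the peaks of a first cohort list but 38.7% to 67.3% of its 1000 strongest peaks. In the ApoE KO cohort they made up 14.4% to 27.0% of the list and 55.8% to 62.4% of its 1000 strongest peaks. The authors' fold enrichment, given only for the ApoE KO cohort, had member medians of 4.84 to 7.33 by library, against 3.403 to 4.195 over all peaks.

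Among the regions called in every library, members ranked higher than those inside and outside genes, although the order within the members varied by cohort. A rank percentile was assigned within each library over the 17343 always-called regions, by the highest peak score in the region, with 100 for the strongest. The median member ranked between 54.2 and 64.7 in the 12 libraries, the median region inside genes between 38.5 and 49.7, and the median region outside genes between 38.3 and 51.6, and members were highest of these 3 classes in each library. The 1538 long regions, by contrast, had medians of 30.4 to 51.3 in the first cohort and 61.1 to 67.0 in the ApoE KO cohort. They lay below the members in each first cohort library. In each ApoE KO library they lay above the members, whose medians there were 58.65 to 64.69. Spearman's correlation of the members' ranks, over regions that share libraries, was 0.857 to 0.946 within the first cohort, 0.815 to 0.922 within the ApoE KO cohort and 0.469 to 0.682 between cohorts. The median member's rank ranged over 42.2 points between its lowest and its highest library, and 2153 members (34.4%) ranged over more than 50 points.

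**Figure D2:**
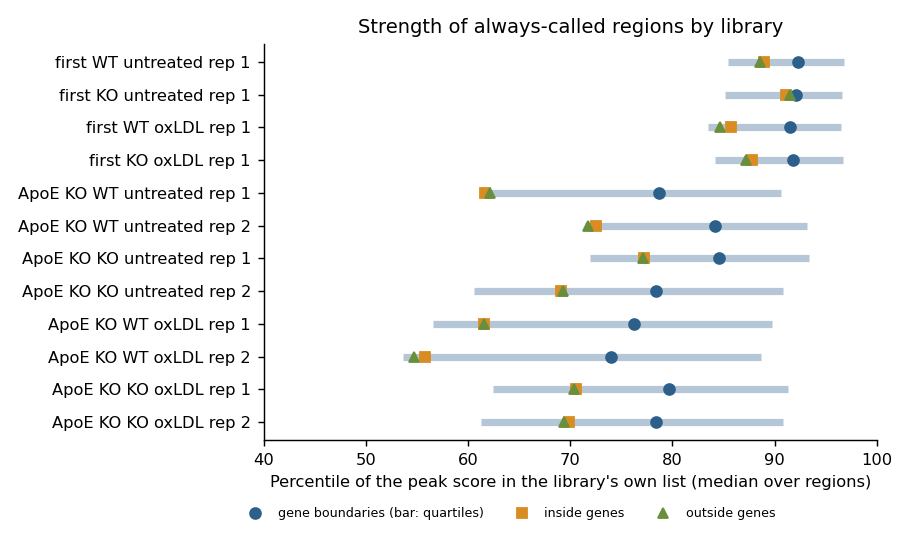
Median percentile of the peak score in each library's own list (x) for always-called regions at gene boundaries (circles, with a bar from the lower to the upper quartile), inside genes (squares) and outside genes (triangles), for 12 libraries (y). Circles lie right of the other symbols in all 12 libraries, and the 4 first cohort libraries lie at 91.5 to 92.3.

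A small group stayed at the top in every library. Of the members, 183 (2.93%) ranked above 90 in all 12 libraries and 6 ranked below 10 in all 12. Kbtbd8, a substrate adaptor of a ubiquitin ligase, had the highest mean rank at 99.81. Its rank was 99.76, 99.37, 99.97 and 99.96 in the first cohort and 99.67 to 99.92 in the ApoE KO cohort, where its fold enrichment was 11 to 16.5. Hspa13, a heat shock protein family member, ranked 99.26 to 99.91 over the 12 libraries, Tasp1, a protease that cuts MLL proteins, 99.11 to 99.99, and Zfp317, a zinc finger gene, 99.07 to 99.91. These 4, with Xrcc4, a DNA end-joining factor (98.78 to 99.85), had the 5 narrowest ranges of all members, and a rank near 100 has little room to vary. Msantd4, Fto, Desi2, Erp44 and Arl13b completed the 10 highest.

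The lowest means belonged to Dlgap5, a mitotic spindle gene, at 2.07, followed by Rnf152, the end of Tnfaip2, Tbc1d30 and Pxn, the gene of the adhesion protein paxillin, at 2.90. Dlgap5 ranked 0.39 to 0.85 in the first cohort and 0.40 to 5.05 in the ApoE KO cohort, with a median fold enrichment of 2.75. The 5 widest ranges were at Zfp101, Adamts13, Ralgps1, Rhbdd2 and Msto1, and each of these ranked higher in all 4 first cohort libraries than in all 8 ApoE KO libraries. Zfp101 is an example, with 96.1, 99.3, 89.2 and 92.9 in the first cohort and 0.262 to 42.1 in the ApoE KO cohort. These 5 were chosen by their range over the same libraries, and members so chosen tend to separate by that choice. The share of all regions without overlap between cohorts was not counted.

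Regions where genes start on both strands were the stronger ones. The 574 members with divergent starts had a median mean rank of 69.2 and a median fold enrichment of 5.82, against 59.4 and 5.26 over all members. The 152 members at a gene end only were shorter, with a median of 1054 bp, and weaker, with a median mean rank of 40.3 and fold of 4.29. The 5 strongest of them by mean rank lay at the ends of Gm46933 (92.7), Gorasp1 (88.4), Syce1l (88.3), Lars2 (86.9) and Slc12a3 (83.7). A boundary of an annotated non-coding gene lay within 1 kb of 7 of the 152 (4.61%), against 841 (13.5%) of all members.

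Member promoters were rich in CpG. Of the 16456 promoters in the RefSeq table, 250 bases before to 50 after the start, 5391 had their start inside a member. A ratio of observed to expected CpG of at least 0.6, a usual mark of a CpG island, was found in 82.7% of member promoters and 33.8% of the other 11065. The median GC content was 61.7% and 53.3%. Within the members, the Pearson correlation across the 5391 promoters was low, at 0.04 between mean rank and GC content and 0.11 with the CpG ratio. Split at the ratio of 0.6, however, members at or above it had a median rank of 63.8 and those below it 54.7. A ratio of at least 0.6 was found in 86.2% of the 1797 member promoters of highest mean rank and 77.4% of the 1797 of lowest.

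Motifs of broadly expressed factors were more frequent in member promoters, counted over both strands of the 300 bases. The SP/KLF letters GGGCGGG stood in 51.7% of member promoters, 26.4% of the others and 34.7% of all. CCGGAAG (ETS) stood in 23.1%, 6.99% and 12.3%, and GCGCANGCG (NRF1) in 17.7%, 4.88% and 9.08%. Shares for the E-box CACGTG were 11.02%, 6.49% and 7.97%, for TGACGTCA (CRE) 3.97%, 1.64% and 2.40%, and for AAGATGGCG (YY1) 3.73%, 1.04% and 1.92%. TATAAA went the other way, with 5.71% of member promoters, 17.4% of the others and 13.5% of all. TGANTCA (AP-1) did too, with 4.32%, 8.48% and 7.12%. N stands for any base, so this pattern is wider than the AP-1 site TGA(C/G)TCA, whose own share was not counted. The Sel1l window printed above holds TGATTCA, which matches only the wider pattern. For GAGGAAGT, letters of the macrophage factor PU.1, the shares were close, at 3.04%, 3.29% and 3.209%. TTGCGCAAT (C/EBP) was found in 6 member promoters and 2 others. The SP/KLF, ETS and NRF1 letters are mostly G and C, member promoters hold more of both bases, and the part of base content in these shares was not tested. Matches of different motifs may overlap, and a match describes letters, not a bound site.

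The NF-Y box tracked strength within the members more than membership itself. CCAAT stood in 42.3% of member promoters, 37.6% of the others and 39.1% of all. Among the 1797 member promoters of highest mean rank the share was 54.0%, and among the 1797 of lowest it was 31.8%. Members with CCAAT had a median rank of 68.9 and those without it 57.2. The Kbtbd8 window printed above is one with 3 matches in its 250 upstream bases. TATAAA stood in 3.40% of the strongest and 7.07% of the weakest, although Zfp317, among the 10 highest members, holds it.

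Genes of basic cell machinery were marked most often. Of 31 proteasome genes, whose products form the protein-degrading complex, 28 (90.3%) had a member, with Psma4 (mean rank 86.4) the strongest. Sterol synthesis genes had 17 of 21 (81.0%) and the highest median rank of the lists with at least 5 members, 83.7. Hsd17b7 (98.8), Hmgcs1 (97.0), Idi1 (95.3) and Msmo1 (94.7), all enzymes of that pathway, led it. Respiratory chain genes had 33 of 41 (80.5%), with Ndufb5 of complex I at 93.5. RNA polymerase II and its general factors had 26 of 33 (78.8%), cytosolic ribosomal proteins 63 of 80 (78.8%) and mitochondrial ribosomal proteins 54 of 78 (69.2%). Rpl15 reached 97.6 and Mrps14 99.3. Mrpl47 and Ndufb5 share 1 divergent region, as do Tap1 and Psmb9.

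Macrophage identity genes had members at 12 of 31 (38.7%), close to the 34.2% of all genes, with a median rank of 32.7 against 59.4 over all members. Mitf, a regulator of lysosomal genes, was at 78.96, Trem2, a lipid receptor, at 55.36, Ctsd, a lysosomal protease, at 35.25 and Cd14, the endotoxin co-receptor, at 33.85. Spi1, which encodes PU.1, ranked 2.73 to 37.5 over the 12 libraries, Cebpb 2.95 to 52.8 and Lyz2, the lysozyme gene that drives Cre here, 11.2 to 61.9. Of the other identity genes, 7, among them Adgre1 and Cebpa, had an always-called region of 2000 bp or more at a boundary (22.6%, against 6.01% of all genes), 11, among them Csf1r, Itgam and Cx3cr1, had only regions called in 1 to 11 libraries, and 1 had none. Modified LDL uptake genes had members at 5 of 15 (33.3%), also close to all genes, with Lrp1, an endocytic receptor, at 59.4 and Msr1, a scavenger receptor, at 32.7, and Cd36, Olr1 and Marco had regions called in 1 to 11 libraries only.

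Lysosome and autophagy genes had 19 of 28 (67.9%), where Npc2 (93.6), Npc1 (85.6) and Lipa (87.0) handle the cholesterol that lysosomes release. Cholesterol efflux and LXR genes, a list that holds those 3 too, had 11 of 22 (50.0%). Apoe, deleted in all groups of the ApoE KO cohort, had only regions called in 1 to 11 libraries. NF-kB and inflammatory genes had 18 of 34 (52.9%), with Relb (87.1) and Ccl2 (76.1) high, and Tnf, Tlr4 and Icam1 among those with a longer always-called region. Interferon-stimulated genes had 14 of 24 (58.3%), led by Stat2 (81.1), and cell cycle genes 17 of 29 (58.6%), led by the replication helicase subunits Mcm3 (95.2) and Mcm4 (94.0). SWI/SNF subunits had 15 of 28 (53.6%). Actl6a was at 98.6, Brd9 at 84.6, Smarca2 at 83.9 and Smarcc1 at 78.2, while Smarcd1 itself was at 13.2.

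Genes of the other cell types listed had members less often than the 34.2% of all genes. Members were found at 1 of 12 B cell, 2 of 16 T and NK cell, 2 of 15 neutrophil, 1 of 12 erythroid and megakaryocyte, 1 of 12 dendritic cell, 2 of 16 hepatocyte and 1 of 16 keratinocyte genes, and at none of 11 mast cell, 14 neuron and 16 striated muscle genes. Among them, Blnk (17.29), Itgax (15.31) and Pf4 (14.9) were low in rank, S100a8 was at 57.49, and the members of Cd3d (45.74) and Mmp8 (70.94) were at gene ends. The dendritic cell genes Irf4 and Xcr1 had an always-called region of 2000 bp or more (16.67% of that list, against 6.01% of all genes). Only regions called in 1 to 11 libraries were found at 18.75% of hepatocyte to 66.67% of dendritic cell and of erythroid and megakaryocyte genes, against 26.65% of all genes. No member marked any of 39 Hox or 49 keratin genes, yet 25 of the 39 Hox genes (64.1%) had a boundary region called in 1 to 11 libraries. Olfactory receptors had 6 of 1104 (0.544%) and vomeronasal receptors 1 of 352, Vmn1r4, which ranked 86.8 to 98.4 over the 12 libraries. Zinc finger Zfp genes had 201 of 388 (51.8%) and solute carriers 104 of 333 (31.2%).

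**Figure D3:**
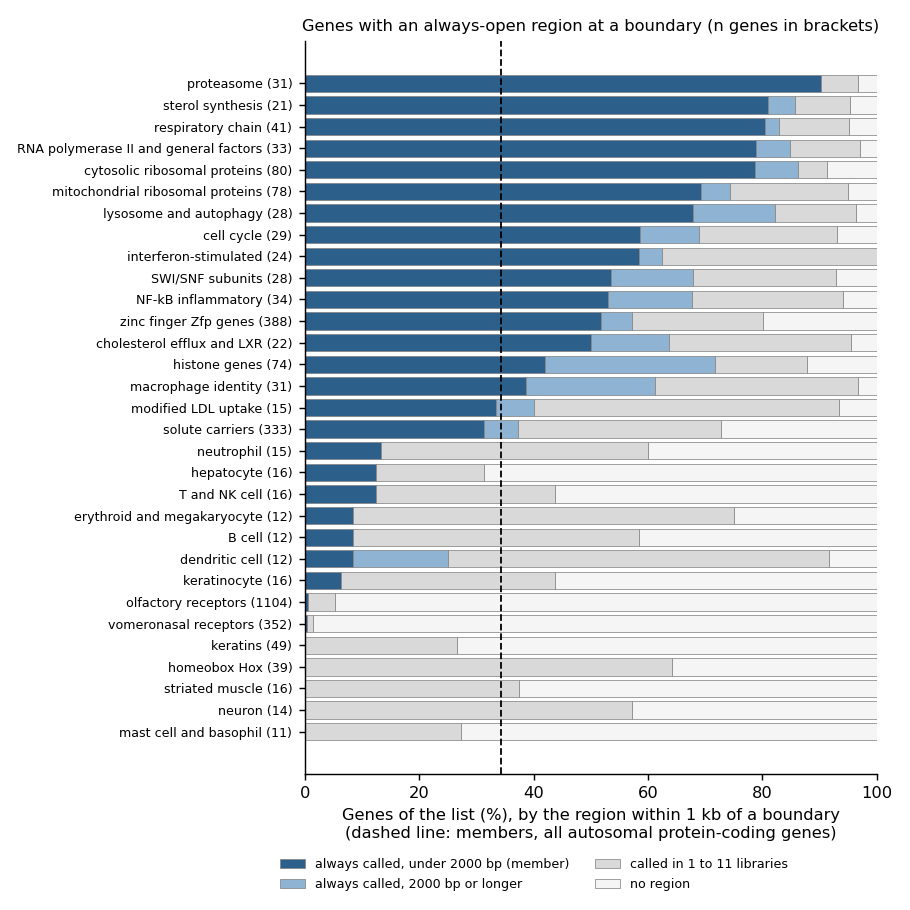
Percent of the genes of each of 31 lists (y, number of genes in brackets) by the region within 1 kb of a boundary (x): a member, an always-called region of 2000 bp or more, a region called in 1 to 11 libraries, or none. The dashed line is the 34.2% of all autosomal protein-coding genes with a member. Proteasome genes with a member reach 90.3%, while Hox, keratin, muscle, neuron and mast cell genes have no member.

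Baf60a loss moved no member past the threshold. Ranks were turned into normal scores, a scale on which 0 is the middle of the ranking, and tested with limma over all 17343 always-called regions, with cohort and treatment in the model and Benjamini-Hochberg adjustment at 0.05. Of the 6253 members, 0 were called for KO minus WT, and 5 of all regions were, 0.0288% of those tested, all higher in KO. At an unadjusted p under 0.05 there were 833 members (13.3%), 127 higher and 706 lower in KO, against 2603 of all regions (15%), 1326 higher (7.65%) and 1277 lower (7.36%). Lowest of the members' adjusted p-values was 0.09691. The count of members called was 3 without the first cohort WT untreated library, 12 without the first cohort KO oxLDL library, 1 without the ApoE KO cohort KO untreated replicate 1, and 0 without each of the others.

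The members' differences leaned below 0 with KO. Below 0 were 4256 of 6253 members (68.1%) with a median of -0.11, against 52.5% of all always-called regions, 40.4% of those inside genes and 36.6% of those outside. The 4974 members near a known gene start had 69.4% below 0 (median -0.12). The 152 at an end only showed no such lean, with 50.7% below 0 (median -0.003). The median member ranked 59.7 in WT and 54.2 in KO in the untreated first cohort, and 63.7 and 60.7 after oxLDL. The ApoE KO cohort gave 64.7 and 64.4 in untreated WT and 60.5 and 59.2 in untreated KO, and after oxLDL 62.6 and 63.7 in WT and 59.5 and 58.7 in KO. Each KO library thus lay below the WT libraries of its cohort and treatment. Ranks are relative, so members fall where other regions rise, and a lower share of boundary peaks with KO was known from these lists beforehand, so this is no independent evidence of it. The KO lists of a cohort and treatment held more peaks than the WT lists in the first cohort (138132 against 106477, and 93867 against 80394) and in the oxLDL-treated ApoE KO cohort (35589 and 33934 against 27571 and 24397), but not in all untreated ones (44524 and 33267 against 29064 and 39303). Whether peak number plays a part was not tested.

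The list counts were chosen with the lean already known and carry no test. By gene list, the lean below 0 with KO was uneven, where 68.1% of all members lay below 0. Cytosolic ribosomal protein members had a difference below 0 in 58 of 63, with a median of -0.24. Sterol synthesis members did so in 16 of 17 (median -0.20), SWI/SNF members in 12 of 15 (-0.21) and respiratory chain members in 26 of 33 (-0.16). Interferon-stimulated members had 10 of 13 below 0 (-0.30) and histone members 19 of 24 (-0.14). Proteasome members had 21 of 28 (-0.15), RNA polymerase II and general factor members 20 of 26 (-0.12) and NF-kB and inflammatory members 12 of 17 (-0.05). Zfp members were even, with 93 of 196 below 0 and a median of 0.02, mitochondrial ribosomal members had 31 of 53 below 0 (-0.07), and the 6 olfactory receptor members were all above 0. None of these members passed the threshold, and with a stricter rule, under which the peaks of each library must cover 50% of the region and which leaves 5 SWI/SNF members and 9 mitochondrial ribosomal members, 2 and 3 of them were below 0.

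Members with the smallest p for lower rank in KO were Kcnn1, Abcb9, U2af1, Sppl3 and Ankrd13d. Kcnn1, a calcium-activated potassium channel gene, ranked 8.65 to 23.6 with a median of 19.5 in the 6 KO libraries and 28.1 to 69.5 with a median of 39.9 in the 6 WT libraries. Its groups did not overlap, and the difference in normal score was -0.84 ± 0.16 (SE, limma adjusted p = 0.0969). Groups of members chosen by smallest p, here and below, tend to separate by that choice. The share of all regions without overlap was not counted. U2af1, a splicing factor gene, had KO ranks of 76.8 and 91.2 in the first cohort and 3.67 to 22.1 in the ApoE KO cohort. Its WT ranks were 93.1 and 91.3 in the first cohort and 45.0 to 48.7 in the ApoE KO cohort, and the difference was -0.88 ± 0.18 (SE, limma adjusted p = 0.0969). The KO and WT ranges of U2af1 did not overlap within either cohort, and in the first cohort the KO oxLDL rank was close to the WT oxLDL one. Abcb9, a lysosomal peptide transporter gene, differed by -1.17 ± 0.23, Sppl3, an intramembrane protease gene, by -1.24 ± 0.25 and Ankrd13d by -0.95 ± 0.20.

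On the higher side were Ear2, an eosinophil ribonuclease family gene, Aox1, an aldehyde oxidase gene, Plekhs1, Prkcq, a protein kinase C gene, and Slc27a6, a fatty acid transporter gene. At 3 of these 5, Ear2, Plekhs1 and Prkcq, the member lies at the gene's end. Ear2 ranked 38.5 to 63.3 with a median of 50.9 in KO and 2.35 to 36.7 with a median of 22.3 in WT, without overlap, a difference of 0.99 ± 0.22 (SE, limma adjusted p = 0.106). At Smarcd1 the region spanned chr15:99701894-99702982, 151 bp from centre to the start. As a member it holds a peak in all 12 libraries by the rule, so its peaks in the 6 KO libraries are no finding. The Smarcd1 region ranked 24.2 and 36.7 in WT and 18.5 and 30.9 in KO in the first cohort. In the ApoE KO cohort it ranked 0.297 to 16.3 in WT and 0.741 to 7.75 in KO, and the difference over both cohorts was -0.18 ± 0.29 (SE, limma adjusted p = 0.80). This promoter peak does not show whether the floxed part of Smarcd1 was removed.

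**Figure D4:**
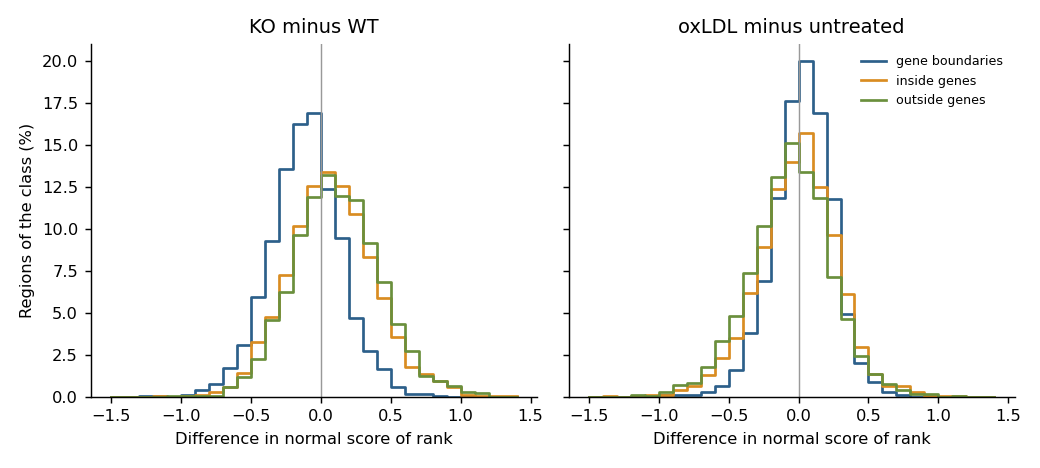
Difference in normal score of rank (x) against the percent of always-called regions (y) at gene boundaries (blue), inside genes (orange) and outside genes (green), for KO minus WT (left) and oxLDL minus untreated (right). For KO minus WT the blue line is shifted left, with 68.1% of members below 0 against 40.4% and 36.6% of the other classes.

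Treatment with oxLDL moved no member past the threshold either, with 0 called by limma of 6253 and 0 of all regions (0% of those tested). At an unadjusted p under 0.05 were 344 members (5.50%), against 1588 of all regions (9.16%). Differences were below 0 in 43.0% of members, and in 54.8% in the ApoE KO cohort alone, so the lean had no stable direction. Smallest p-values were at the end of Dnajb12, a heat shock co-chaperone, and at Lrrc70, Cd109, Clec10a and Zfp101 for lower ranks, and at Fhod3, Hps6, Sos2, Mgst1 and Rnft1 for higher ones. Cd109, which encodes a surface glycoprotein, ranked 0.989 to 9.36 with a median of 4.26 in the 6 oxLDL libraries and 11.7 to 32.0 with a median of 19.6 in the 6 untreated ones. Its groups did not overlap, and it differed by -0.91 ± 0.19 (SE, limma adjusted p = 0.145). Fhod3, a formin gene, ranked 21.7 to 38.0 with oxLDL and 2.45 to 16.7 untreated, a difference of 0.79 ± 0.19 (SE, limma adjusted p = 0.221). Mgst1, a microsomal glutathione transferase gene, ranked 70.2 to 96.2 with oxLDL and 36.9 to 83.6 untreated, with overlap.

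No member passed for the difference between the genotypes' oxLDL responses, with 0 called by limma, 242 (3.87%) at an unadjusted p under 0.05 and a lowest adjusted p of 0.9887. All regions gave 0 calls (0%) and 758 (4.37%). The smallest p-values were at Cacfd1, Maea, Cers5, Klhdc3 and Otud3 on the higher side and at Ppp4r2, Fut4, Lix1, Uevld and Exo1 on the lower one. At Cers5, a ceramide synthase gene, ApoE KO cohort ranks were 48.3 and 44.5 in untreated WT, 2.43 and 15.2 in WT with oxLDL, 14.45 and 18.02 in untreated KO and 43.4 and 34.2 in KO with oxLDL. In the first cohort its 4 ranks lay between 85.8 and 93.5.

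The 2 cohorts ordered the members differently. Of 6253 members, 3494 (55.9%) were called by limma, 1631 (26.1%) higher and 1863 (29.8%) lower in the first cohort, against 54.5% of all regions tested, 26.6% higher and 27.9% lower. Members therefore differed between cohorts about as often as other always-called regions. Nr1d2, a clock repressor gene, ranked 24.1, 14.7, 46.1 and 24.0 in the first cohort and 96.7 to 99.4 with a median of 98.8 in the ApoE KO cohort, a difference of -2.89 ± 0.19 (SE, limma adjusted p = 2.975e-08). Zyx, the gene of the focal adhesion protein zyxin, ranked 12.4 to 48.7 and 97.97 to 99.51. Farsb, a phenylalanyl-tRNA synthetase subunit gene, ranked 3.64 to 8.56 and 78.3 to 87.1. Zbtb20, a transcription repressor gene, ranked 72.9 to 91.9 and 99.96 to 99.99. None of these groups overlapped, but the genes were chosen by smallest p, and the share of all regions without overlap was not counted.

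Timm17a, a mitochondrial import gene, ranked 99.2 to 99.9 in the first cohort and 39.6 to 70.4 with a median of 57.9 in the ApoE KO cohort, a difference of 2.48 ± 0.19 (SE, limma adjusted p = 1.686e-07). Thoc5, an mRNA export gene, ranked 63.5 to 78.4 and 0.363 to 7.07, a difference of 2.62 ± 0.21. Rbm4, an RNA-binding protein gene, ranked 98.03 to 99.42 and 9.80 to 59.3, Calcoco1 99.7 to 99.9 and 66.5 to 87.2, and Fn3krp 95.6 to 98.6 and 30.0 to 57.2. All 5 lay higher in the first cohort without overlap, and they too were chosen by smallest p.

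The end of Lars2, a mitochondrial leucyl-tRNA synthetase gene, held the member with the highest fold enrichment, in a 580 bp region at chr9:123461700-123462279 with its centre 686 bp from the gene end. Its fold enrichment was 24.4 to 33.4 in the 8 ApoE KO libraries, with ranks of 99.99 or above in each. In the first cohort it ranked 37.0, 61.5, 65.9 and 78.4, a difference of -3.62 ± 0.20 (SE, limma adjusted p = 1.436e-08). Its KO minus WT difference was 0.01 ± 0.19. Whether read mapping plays a part in a peak this high was not tested, since no reads were analysed.

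**Figure D5:**
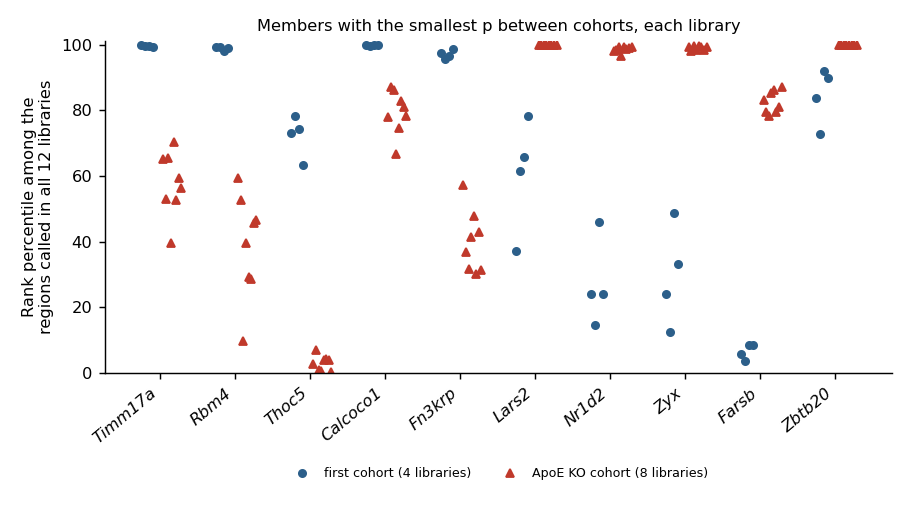
Rank percentile (y) of the 10 members with the smallest p between cohorts, 5 in each direction (x), in the 4 first cohort libraries (circles) and the 8 ApoE KO cohort libraries (triangles). At each gene the 2 sets of points do not overlap, and the members were chosen by this difference.

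Histone genes stood lower in the first cohort. Most of these short genes lie in clusters and encode the proteins that package DNA, and the list also holds the H2A.Z genes, which lie elsewhere. Of their 24 member regions, which marked 31 of 74 genes, 20 were called lower and 2 higher in the first cohort, where 27.9% of all always-called regions were called lower and 26.6% higher. The median difference was -1.11, against -0.03 over all members. At least 21 of 24 were below 0 with each library left out and on the other scales, and 10 of the 11 that the stricter cover rule keeps. H4c4, at chr13:23581269-23582457, ranked 6.72, 8.26, 17.1 and 21.1 in the first cohort and 69.9 to 83.4 in the ApoE KO cohort, a difference of -1.96 ± 0.18 (SE, limma adjusted p = 7.591e-07). H2bc8 ranked 4.99 to 34.1 and 74.8 to 86.6, and H2bc7 2.10 to 15.9 and 42.8 to 78.4, in each case without overlap. The 2 called higher were H2az2, of H2A.Z, with 97.4 to 99.7 and 86.7 to 96.7, and the end of H3c15, with 4.34 to 13.8 and 0.732 to 8.74. These 5 genes were chosen after their values were seen. Macrophage identity members had 4 called lower and 0 higher of 12, a share of lower calls near the 27.9% of all regions. Cebpb, called lower, ranked 2.95 to 20.9 in the first cohort and 26.0 to 52.8 in the ApoE KO cohort (limma adjusted p = 0.000511).

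Motif shares differed between members called in the 2 directions. The ETS letters stood in 30.0% of the 1448 promoters called higher in the first cohort, 20.2% of the 1625 called lower and 20.8% of the 2318 not called. The CCAAT box showed the same order, with 50.7%, 37.0% and 40.6%. NRF1 letters ran the other way, with 13.2%, 22.4% and 17.2%. The median GC content was 60.5%, 63.0% and 61.7%, and the cohort difference correlated only weakly with GC content, by -0.09 across 5391 promoters. The part of GC content in the motif shares was not tested.

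At the limits of the rule, by length, Hspa8 (mean rank 75.91) and Vamp8 (15.67) were the longest members at 1999 bp, and always-called regions of 2000 bp at Zfp472 (58.11) and Polq (67.18) fell just outside. By distance, Zhx2 (10.55) at 1000 bp and Klf2 (20.93) at 997 bp were the farthest members, and Ptgir (36.2) at 1001 bp and Tank (26.97) at 1002 bp were just outside. By libraries, 599 boundary regions under 2000 bp were called in 11 of 12, and 262 of these lacked a peak only in the ApoE KO cohort WT oxLDL replicate 2, the shortest list, and 119 only in its replicate 1. Their median own-list percentile was 52.0, against 83.0 for members. Of all boundary regions under 2000 bp, 40.8% were called in 12 libraries, 3.91% in 11 and 13.3% in 1.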

How the data were processed

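The members and gene lists were chosen with earlier results of these data known. Peak lists were deposited 1 per library on mm10; per the submitters' processing notes the tools included MACS3 (first cohort) or MACS2 (ApoE KO cohort), bedtools 2.28.0, SAMtools 1.2, Bowtie2 2.3.4.1, cutadapt and Picard, and the sources used here state no settings or filters. The deposited score of a peak is in the callers' own unit, of at least 13. The ApoE KO lists also hold the authors' fold enrichment over background (a ratio), −log10 p and q values as deposited (not used), and summit positions. No reads or counts were analysed here, so no depth, interval or floor can be given.

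Peaks were merged with pandas 2.3.3 (Python 3.11.15). A region's value in a library was the highest score in it, ranked over the 17343 regions called in all 12 libraries and turned into a normal score, which removes differences in total signal. limma 3.58.1 (R 4.3.3) was fitted on these regions with cohort, genotype, treatment and their interaction, leaving 7 residual degrees of freedom, and adjusted over all 17343 regions. A run on simulated data used genotype shifts larger than any member's KO minus WT difference, so power at the differences seen is not known. Nothing was dropped or imputed, as each region has a value in each library. Genes and their limits are RefSeq's (GRCm38.p6), and strands and promoter bases are from its promoter table, which covers 16456 of 20661 genes. Named members are the 10 highest and 5 lowest by mean rank, the 5 of smallest p in each direction of each comparison, those nearest the limits of the rule, 9 genes set by name (of which Apoe, Csf1r, Actb and Gapdh had no member), the top members of each list, of each motif and at gene ends, and the 5 widest and narrowest ranges. Alternatives were other score, cover, distance and length limits, other scales, a replicate block, 1 cohort alone and libraries left out.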

Additional observations from a re-analysis of the deposited data

How the results depend on the processing

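The number of members was 6253, and 1555 where peaks of every library had to cover at least 50% of the region, 541 with a length under 1000 bp, and 5314 to 7300 under the other limits, with 6261 to 6516 when 1 library was left out. Genes marked numbered 7075, and 1815 under the cover limit and 8316 with no length limit, both chosen after seeing the data. The KO minus WT count of members called was 0 under the 8 alternatives other than leaving out 1 library, and 0 to 12 when 1 library was left out, and the percent of members below 0 was 59.9% to 69.0%. The oxLDL and interaction counts were 0 under each of their 20 alternatives. The cohort count was 3494, 914 of 1555 members under the cover limit, which tests fewer regions, 2850 to 3410 under the others, and 2919 to 3489 when 1 library was left out. Of the 10 members named for each comparison none changed direction. The percent of members below 0 crossed the middle for oxLDL (43.0%) in the ApoE KO cohort alone (54.76%, and 54.61% by fold enrichment), for the interaction (45.37%) without the first cohort KO untreated (50.86%) or KO oxLDL library (50.23%; 43.45% to 50.86% over libraries left out), and for cohort (51.56%) under the cover limit (to 49%), where SWI/SNF had 2 of 5 and mitochondrial ribosomal members 3 of 9 below 0 for KO minus WT. The cause was not tested. Replicate numbers are in the labels of the ApoE KO cohort only. Deviations of its replicates 1 correlated by -0.09 to 0.05 between groups, so no replicate effect shared between groups was seen in the ranks. With 2 libraries per group this cannot tell whether the samples were paired. With the replicate block the count of members called was 0 for genotype, oxLDL and interaction. With peak scores and no reads, differences in depth between lists cannot be taken out.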
